A study of Mus musculus with 6 samples.

Results

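Imprinted growth genes are expressed mainly from the copy inherited from a single parent and, between them, set how large the embryo and its tissues become. The gene names Igf2, H19, Igf2r, Dlk1, Meg3, Peg3, Mest, Plagl1, Grb10 and Peg10 were looked up in the gene column of the deposited table, and all 10 were found among its 27179 rows. Of these, 9 passed the filter on low values, and Meg3 did not. The study sequenced RNA of mouse embryonic fibroblasts (MEFs) to find genes that differ once Zmat3, which encodes a zinc-finger RNA-binding protein, has been targeted with CRISPR guides. All 6 cultures carried Cas9, the adenoviral oncogene E1A and mutant Hras (HrasG12V), received their guide by lentivirus and were grown for 10 days. The 3 Zmat3 knockout libraries came from guides named 52.6, 51.5 and 54.8 (libraries 1 to 3), and the 3 control libraries from constructs named EV, SPA and ACOCA (libraries 1 to 3). Each library thus had a construct of its own, and the effect of a guide and that of its culture cannot be told apart.

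Libraries held 53253055 to 90256118 reads, and values are normalised counts, that is reads divided by a size factor of the library. A single read was worth 0.732 to 1.21 normalised counts. Zmat3 RNA in knockout libraries 1 to 3 came to 67.9%, 29.2% and 29.5% of the mean of the controls, so the first knockout library kept most of its Zmat3 RNA. ZMAT3 protein was not measured here. The main test did not call Zmat3 itself, with a limma log2 fold change of -1.36 (SE 0.33) and a limma adjusted p of 0.371. The edgeR adjusted p was 0.365, and that of DESeq2 0.0441, or 0.213 without control library 3. Fibroblast markers were present, with Vim at 150396 to 195037, while Lum was listed at 0 and Thy1 and Col1a2 had at most 5.42 and 14.2. Of the 9 fibroblast markers tested, 7 had a limma log2 fold change above 0, with a median of 0.59 (0.22 without control library 3). Among them Col3a1 averaged 3348 ± 313 in knockouts and 1676 ± 1280.1 in controls, and Prrx1 5688 ± 407 in knockouts and 3616 ± 870 in controls. Both lay above the controls in every knockout library (22.2% of the 9 markers, against 13.2% of all genes tested). All below were 0 of the 9, against 14.4% of all genes tested. Of the 9 markers they were also the ones DESeq2 called without control library 3, a fit that called 701 genes in all. With all libraries it called 0 of the 9. Epcam, an epithelial marker, was also present, at 19711 to 25182 in knockout libraries and 3574 to 24986 in control libraries. It was 1 of 6 epithelial markers listed, of which 4 were tested, 2 with a limma log2 fold change above 0 and 2 below. The summed epithelial markers were 20392 to 25401 in knockout libraries, and 29615, 19162 and 12448 in control libraries 1 to 3. The median of the 4 tested, in log2 units from the control mean, was 0.70, -0.46 and 0.38 in knockout libraries 1 to 3. In control libraries 1 to 3 it was 0.91, -0.94 and 0.76. Control library 3 stood apart from the others, with a mean correlation to the other libraries of 0.941 against 0.969 to 0.975 for the rest, and the members' fold changes are also given without it. The summed adipose markers were 7270.3 to 7554.5 in knockout libraries, and 7661, 6030.4 and 1932 in control libraries 1 to 3. The summed muscle precursor markers were 4634 to 4741 in knockout libraries, and 4723, 4472 and 1985 in control libraries 1 to 3. Of the 7 markers in that sum, 4 stayed under 10 normalised counts in every library, and 2 were tested, Des and Pax3. Of the leukocyte markers, Cd68 had 7160.3 to 9236 normalised counts in knockout libraries, and 5352, 6049 and 769 in control libraries 1 to 3, while the defining markers Ptprc and Adgre1 had at most 8.26 and 4.72. In control library 3 Igf2r, Peg3 and H19 were at their lowest of all libraries and Peg10 at its highest. Whether the mixture of cells had a part in any of the values below was not tested. In bulk RNA of this kind, fewer cells of a type and less RNA per cell cannot be told apart.

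At an imprinted cluster, methylation laid down in the egg or the sperm marks an imprinting control region, and that mark decides which parental copy of the neighbouring genes is read. Many clusters pair protein-coding genes with a long non-coding RNA made from the other parental copy, as Igf2 is paired with H19, Dlk1 with Meg3, and Igf2r with Airn. Genes active on the paternal copy tend to promote growth and those active on the maternal copy tend to restrain it, and most are high in the fetus and shut down after birth. RNA counts that do not separate the alleles, as here, measure the sum of both copies and say nothing of imprinting itself.

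Of the 9 members tested, 0 passed the main test at a false discovery rate (FDR) of 0.05, 1 of them with an unadjusted p under 0.05. That test was limma on log2(normalised count + 1), and its calls were 0 of 14777 genes (0%) beside 1948 with an unadjusted p under 0.05. EdgeR on the reads recovered from the table made 0 calls (0%) beside 1987 such genes. DESeq2 on the same reads called 61 genes higher (0.424%) and 69 lower (0.48%) in knockouts, and Dlk1 was its only member. The knockout libraries all lay above the control libraries in 1 of the 9 members tested (11.1%), against 13.2% of all genes tested. They all lay below in 0 of 9, against 14.4% of all genes tested. The limma log2 fold change was above 0 in 6 members and below 0 in 3, with a median of 0.30 beside 0.01 over all genes tested. Without control library 3 the members' median was -0.01, so the positive median rested on that library. With 3 libraries against 3, the exact permutation test of a single value cannot go below p = 0.1.

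**Figure D1:**
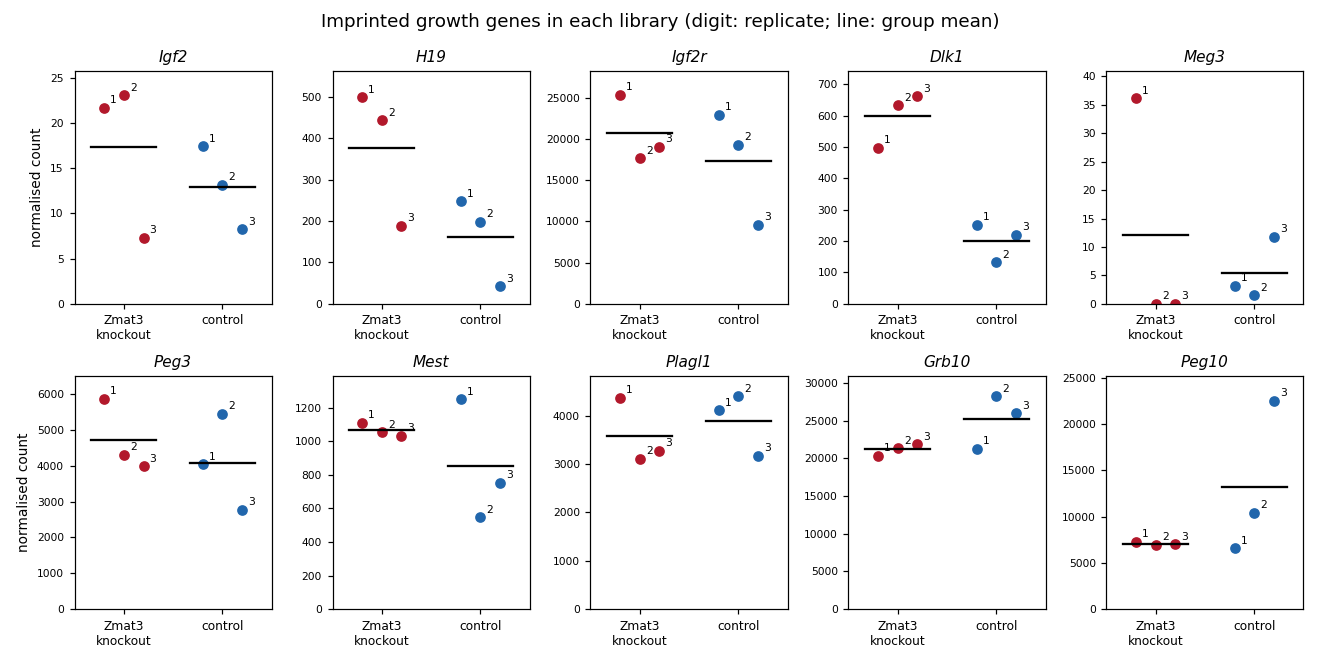
Normalised counts (vertical axes, linear, each starting at 0) of the 10 members in each library, with knockout libraries on the left of each panel and control libraries on the right. Dlk1 is the only member whose 3 knockout libraries all lie above its 3 control libraries, and control library 3 lies far from the other libraries for Igf2r and Peg10.

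The members covered a wide range of levels. Per kilobase of the longest annotated transcript, Grb10 was highest, at 4191 ± 151 normalised counts in knockouts and 4975 ± 704 in controls (SD, n = 3 each, as for the other levels here). Igf2r had 2332 ± 463 per kilobase in knockouts and 1946 ± 780 in controls, and Peg10 had 1060.5 ± 27.5 in knockouts and 1978 ± 1251 in controls. These were the most abundant members, and the Igf2r and Peg10 library ranges were separate in knockouts and overlapped in controls. Plagl1 had 681 ± 131 per kilobase in knockouts and 739.8 ± 122 in controls, Peg3 543 ± 116 in knockouts and 469.9 ± 154 in controls, and Mest 400.1 ± 15.3 in knockouts and 319 ± 136 in controls. The ranges of Plagl1 and Peg3 overlapped in both groups, and those of Peg3 and Mest in controls only. H19 had 165 ± 72.5 per kilobase in knockouts and 71.1 ± 46.8 in controls, and Dlk1 had 128 ± 18.8 in knockouts and 43.2 ± 13.4 in controls, again with overlapping ranges. Igf2 followed at 3.68 ± 1.85 per kilobase in knockouts and 2.75 ± 0.97 in controls, and Meg3 was lowest, at 0.83 in knockouts and 0.38 in controls, with a range that overlapped that of Igf2 in knockouts only. The growth factor of the set thus had few counted reads in these cells, while its clearance receptor Igf2r and the growth inhibitor Grb10 were abundant.

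Dlk1, a transmembrane protein with epidermal-growth-factor repeats that is related to Notch ligands and restrains the maturation of fat cells, had more RNA in each knockout library than in the highest control. It is a paternally expressed gene of 6 exons at chr12:109452823-109463336 (GRCm38, plus strand). Dlk1 had 498, 633 and 661 normalised counts in knockout libraries 1 to 3, against 252, 132 and 219 in control libraries 1 to 3. The groups did not overlap, and knockout library 1 was the lowest of its group. Dlk1 averaged 597 ± 87.2 in knockouts and 201 ± 62.3 in controls, a ratio of means of 2.97, or 3.11 without control library 3. Limma put its log2 fold change at 1.61 (SE 0.30), with an unadjusted p of 0.00123 and a limma adjusted p of 0.371. The DESeq2 value was 1.57 (SE 0.31, adjusted p 0.000276), and the edgeR adjusted p was 0.365, so the call depended on the tool. With control library 3 left out, limma gave 1.70 (limma adjusted p 0.188) and DESeq2 1.63 (adjusted p 4.49e-05). Leaving out each library in turn moved the limma value between 1.33 and 1.80. The marker sum for adipose cells, given above, overlapped between the groups, and its relation to Dlk1 was not tested.

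The window around the Dlk1 start is shown because Dlk1 was the member with separated groups. It is the RefSeq sequence from 250 bases before to 50 after the start (GRCm38.p6, plus strand, chr12:109452573-109452872), with CpG dinucleotides, the sites at which imprinting marks are written, in capitals.
Dlk1 promoter window: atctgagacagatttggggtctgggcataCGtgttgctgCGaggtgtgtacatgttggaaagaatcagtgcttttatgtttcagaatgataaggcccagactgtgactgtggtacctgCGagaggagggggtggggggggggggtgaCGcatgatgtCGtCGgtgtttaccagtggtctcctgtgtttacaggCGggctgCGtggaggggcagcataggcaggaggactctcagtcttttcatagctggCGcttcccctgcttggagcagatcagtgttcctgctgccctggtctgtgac
It held 9 CpG, and 45.8% of the 32851 windows of this length in the table held at least as many. Methylation was not measured in this series.

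Meg3, the maternally expressed non-coding RNA of the same cluster (chr12:109541001-109571726, plus strand), was barely detected. It had 36.1, 0 and 0 normalised counts in knockout libraries 1 to 3 and 3.17, 1.46 and 11.8 in control libraries 1 to 3, from 40 reads at most. The groups overlapped, and a count of 0 allows up to 3.47 in knockout library 2 and 3.64 in knockout library 3 (3 reads, counting error only). Meg3 was below the filter of the main test. Without a filter limma gave it a log2 fold change of -0.61 (SE 1.43), and DESeq2 gave 1.16 (SE 1.87), so neither its size nor its direction was settled at this depth. Other maternally expressed RNAs of the cluster were low as well. Mirg, a microRNA host transcript, had 19.9, 23.1 and 34.0 normalised counts in knockout libraries 1 to 3, against 11.1, 7.32 and 3.54 in control libraries 1 to 3. Its groups did not overlap, with a limma log2 fold change of 1.76 (SE 0.53), a limma adjusted p of 0.371 and a DESeq2 adjusted p of 0.201, and it was 1.37 without control library 3. Rian, which carries small nucleolar RNAs, had 50.6, 27.7 and 27.9 in knockout libraries 1 to 3, against 11.9, 31.5 and 10.6 in control libraries 1 to 3, with overlapping groups. Rtl1, a retrotransposon-derived gene expressed from the paternal copy, was below the filter at 3.47 to 31.6 in knockouts and 2.36 to 4.76 in controls.

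H19, the maternally expressed long non-coding RNA that shares its enhancers with Igf2, had a higher knockout mean with a wide spread. It lies at chr7:142575529-142578143 (GRCm38, minus strand). H19 had 499, 444 and 188 normalised counts in knockout libraries 1 to 3, against 248, 198 and 42.5 in control libraries 1 to 3. Knockout library 3 lay below the highest control library, so the groups overlapped. H19 averaged 377 ± 166 in knockouts and 163 ± 107 in controls, a ratio of 2.32 that came to 1.69 without control library 3. Limma gave a log2 fold change of 1.43 (SE 0.73, limma adjusted p 0.377), and 0.65 without control library 3. The DESeq2 value was 1.21 (SE 0.59, adjusted p 0.281).

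An exon of H19 carries the microRNA miR-675, whose mature RNAs were not measured in these libraries. They are printed because the H19 counts are reads of the transcript that also serves as their precursor. The sequences are from RefSeq (GRCm38.p6, minus strand, chr7:142577112-142577133 for the 5p arm and chr7:142577078-142577099 for the 3p arm), with the seed, bases 2 to 8, in capitals.
miR-675-5p: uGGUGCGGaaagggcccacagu
miR-675-3p: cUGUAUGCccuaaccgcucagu
The arms do not share a seed.

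Igf2, the paternally expressed fetal growth factor on the same chromosome (chr7:142650766-142666816, minus strand), was near the limit of detection. It had 21.7, 23.1 and 7.28 normalised counts in knockout libraries 1 to 3, against 17.5, 13.2 and 8.26 in control libraries 1 to 3. The groups overlapped, with 6 to 24 reads per knockout library and 7 to 22 per control library. Another protein-coding gene, Gm49394, shares 16048 bases with Igf2 on the same strand. How reads of shared bases were counted is not known here, so these counts do not settle the level of Igf2 RNA. Its limma log2 fold change was 0.30 (SE 0.58) with a limma adjusted p of 0.78, and 0.03 without control library 3. Expressed as H19 reads per Igf2 read, knockout libraries 1 to 3 had 23.0, 19.2 and 25.8, against 14.2, 15.0 and 5.14 in control libraries 1 to 3. This ratio averaged 22.7 ± 3.33 in knockouts and 11.4 ± 5.47 in controls, did not overlap between the groups and reached the smallest two-sided exact permutation p of 0.1. The ratio rests on few Igf2 reads in every library. It was chosen with earlier results of these data known, so its p is descriptive only. Cdkn1c, a maternally expressed inhibitor of cyclin-dependent kinases further along the chromosome, had 4113, 4359 and 3319 normalised counts in knockout libraries 1 to 3, against 3492, 2142 and 863 in control libraries 1 to 3. Its groups overlapped, and its limma log2 fold change of 1.07 (SE 0.48, limma adjusted p 0.371) came to 0.51 without control library 3.

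Igf2r, the maternally expressed receptor that carries IGF2 to the lysosome for breakdown, did not differ beyond the spread between libraries. It spans 48 exons at chr17:12682406-12769664 (GRCm38, minus strand). Igf2r had 25411, 17677 and 19092 normalised counts in knockout libraries 1 to 3, against 22974, 19328 and 9567 in control libraries 1 to 3. The low library was control 3, and the groups overlapped. For Igf2r limma gave a log2 fold change of 0.34 (SE 0.34) with a limma adjusted p of 0.578, and -0.04 without control library 3, so its direction turned with that library.

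Airn, the paternally expressed non-coding RNA that starts inside Igf2r on the opposite strand and silences the paternal Igf2r copy in mice, was higher in every knockout library. Airn had 438, 274 and 274 normalised counts in knockout libraries 1 to 3, against 161, 137 and 68.4 in control libraries 1 to 3. It averaged 329 ± 94.9 in knockouts and 122 ± 48.1 in controls, with groups that did not overlap. Limma gave Airn a log2 fold change of 1.47 (SE 0.40, limma adjusted p 0.371), and 1.10 without control library 3. The DESeq2 value was 1.42 (SE 0.39, adjusted p 0.0400), and 1.14 without control library 3 (adjusted p 0.0122), while the edgeR adjusted p was 0.365. Airn and Igf2r share 28354 bases of chromosome 17 on opposite strands. Of the 3597 exon bases of Airn, 114 lie within the Igf2r gene and 0 within its annotated exons. Neither the gene models nor the strand setting behind the counts are known here, so reads of the partners cannot be told apart from the counts alone.

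Airn reads were 1.72, 1.55 and 1.44 per 100 Igf2r reads in knockout libraries 1 to 3, against 0.701, 0.708 and 0.715 in control libraries 1 to 3. The control libraries held almost the same ratio, control library 3 included, although its Igf2r was the lowest of the 6. The ratio averaged 1.57 ± 0.146 in knockouts and 0.708 ± 0.007 in controls, and its two-sided exact permutation p was 0.1, the smallest possible. The ratio of Sgce, a sarcoglycan gene, to its neighbour Peg10 did not separate the groups, at 47.4, 65.7 and 64.4 Sgce reads per 100 Peg10 reads in knockout libraries 1 to 3 and 57.8, 39.6 and 11.1 in control libraries 1 to 3. Usp29, which shares a promoter region with Peg3, had 4.63, 4.77 and 4.93 reads per 100 Peg3 reads in knockout libraries 1 to 3 and 5.35, 3.27 and 2.17 in control libraries 1 to 3. The ratios of Meg3 and Rian to Dlk1, of Igf2 to Igf2r and of Cdkn1c to Grb10 overlapped between the groups as well. Of the 8 ratios computed, which were chosen with earlier results of these data known, Airn to Igf2r and H19 to Igf2 were the ones that separated the groups. Given that choice, their p-values are descriptive only, and the share of other gene pairs that separate was not computed.

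**Figure D2:**
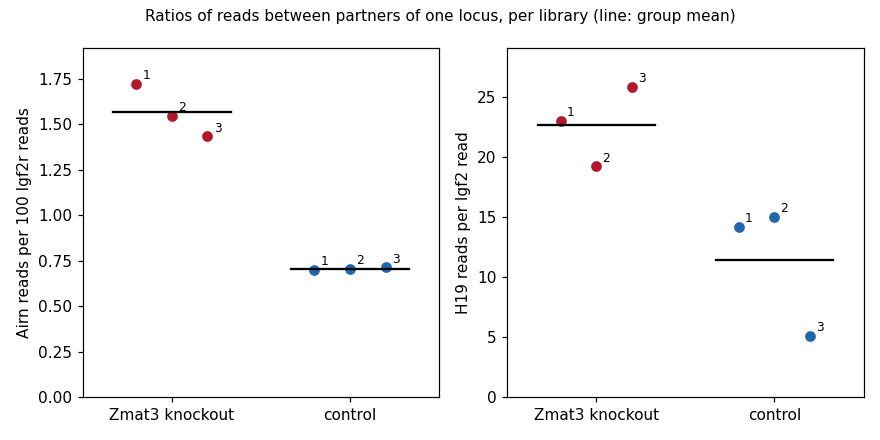
Ratio of reads between neighbouring imprinted genes in each library, with knockout libraries on the left and control libraries on the right of each panel. Airn over Igf2r and H19 over Igf2 do not overlap between the groups, with control values of Airn per 100 Igf2r reads between 0.701 and 0.715.

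The start of Airn is printed because its transcript separated the groups while the gene it overlaps did not. The window is the RefSeq sequence on the plus strand of GRCm38.p6, chr17:12741061-12741360, with CpG dinucleotides in capitals.
Airn promoter window: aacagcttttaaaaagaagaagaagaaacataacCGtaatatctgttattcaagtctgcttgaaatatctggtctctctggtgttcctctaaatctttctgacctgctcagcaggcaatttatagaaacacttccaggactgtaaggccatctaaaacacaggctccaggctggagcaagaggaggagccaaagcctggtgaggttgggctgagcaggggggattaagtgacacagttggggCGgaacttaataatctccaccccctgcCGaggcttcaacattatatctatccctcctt
It held 3 CpG, and 76.7% of windows held at least as many. The Igf2r window, by comparison, held 34. Both windows end 50 bases after the start, and CpG further downstream were not counted. The counts therefore do not show where the imprinting mark of this cluster lies.

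Grb10, an adaptor protein that dampens signalling from the insulin and IGF1 receptors, was the most abundant member and was not called. Grb10 had 20384, 21356 and 21887 normalised counts in knockout libraries 1 to 3, against 21280.0, 28262 and 25995 in control libraries 1 to 3. The highest knockout library exceeded the lowest control library, so the groups overlapped. Grb10 had a limma log2 fold change of -0.24 (SE 0.13) with a limma adjusted p of 0.393, and -0.21 without control library 3. It lies at chr11:11930508-12038683 on the minus strand.

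Plagl1, a zinc-finger transcription factor also known as Zac1 that restrains proliferation, had 4372, 3102 and 3276 normalised counts in knockout libraries 1 to 3, against 4109, 4395 and 3169 in control libraries 1 to 3. The groups overlapped almost fully, and the limma log2 fold change was -0.12 (SE 0.19, limma adjusted p 0.722), or -0.26 without control library 3. Peg3, a paternally expressed zinc-finger gene, had 5869, 4311 and 3987 in knockout libraries 1 to 3, against 4036, 5445 and 2774 in control libraries 1 to 3. Its groups overlapped as well, with a limma log2 fold change of 0.24 (SE 0.27, limma adjusted p 0.618) that became -0.01 without control library 3. Neither regulator differed beyond the spread between libraries.

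Mest, a paternally expressed gene for a protein of the hydrolase fold, had 1112, 1055 and 1032 normalised counts in knockout libraries 1 to 3, against 1252, 548 and 753 in control libraries 1 to 3. The knockout libraries were close together and lay within the range of the controls. Its limma log2 fold change was 0.41 (SE 0.30, limma adjusted p 0.467), and 0.36 without control library 3. Peg10, a retrotransposon-derived gene that the mouse placenta needs, had 7279, 6937 and 6995 in knockout libraries 1 to 3, against 6559.5, 10451 and 22557 in control libraries 1 to 3. Control library 3 stood far above every other library. Its limma log2 fold change of -0.71 (SE 0.41, limma adjusted p 0.402) came to -0.23 without that library.

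**Figure D3:**
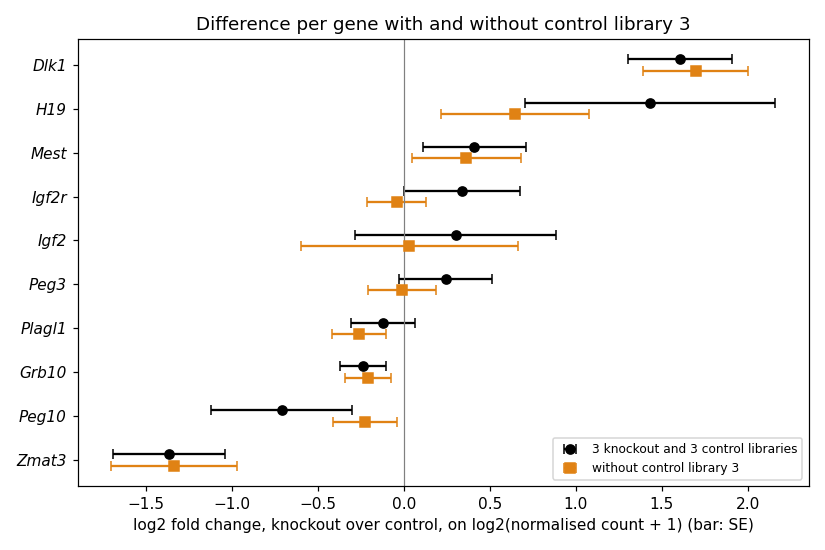
Log2 fold change of each tested member, knockout over control, on the log2(normalised count + 1) scale, with all 6 libraries and without control library 3 (bars, SE). Dlk1 stays between 1.61 and 1.70, whereas H19 moves to 0.65, Peg10 to -0.23 and Igf2r to -0.04 once control library 3 is left out.

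Each member's closest companions by level were taken as the pair of genes with the highest Pearson r over the 6 libraries, among 13024 or 13025 genes with a mean of at least 50. The points share depth and the offset of control library 3, and so many genes over so few libraries yield high values. Dlk1 was closest to Surf1 (r = 0.989, n = 6) and Clybl (r = 0.986, n = 6), with 23 genes over 0.95. Igf2r had 481 genes over 0.95, led by Plxna3, and Peg10 had 751, led by Nfyb. H19 had 206, led by Gm20300. Grb10 had 30, led by Cdh2, Mest 29, led by Camk4, Peg3 25, led by Kdm5a, Plagl1 18, led by Zfp773, and Igf2 had 7, led by Zc3h3. No member was among the closest companions of another.

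Of 27 genes listed as neighbours of the members in their clusters, 26 were in the table and 16 passed the filter. Their knockout libraries all lay above the control libraries in 3, Airn, Mirg and Asb4 (18.8%, against 13.2% of all genes), and all below in 0 (against 14.4%). Asb4, a maternally expressed gene beside Peg10 that takes part in marking proteins for breakdown, averaged 1806 ± 94.2 normalised counts in knockouts and 1332 ± 550 in controls, and its limma log2 fold change of 0.54 came to 0.13 without control library 3. Of the 16, 14 had a limma log2 fold change above 0 (87.5%, against 51.6% of all genes). Without control library 3 it was above 0 in 12 of the 16 (75.0%, against 50.7% of all genes). Another 8 neighbours had at most 5 normalised counts in every library, among them Ins2 and Ddc, which were listed at 0 throughout.

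**Figure D4:**
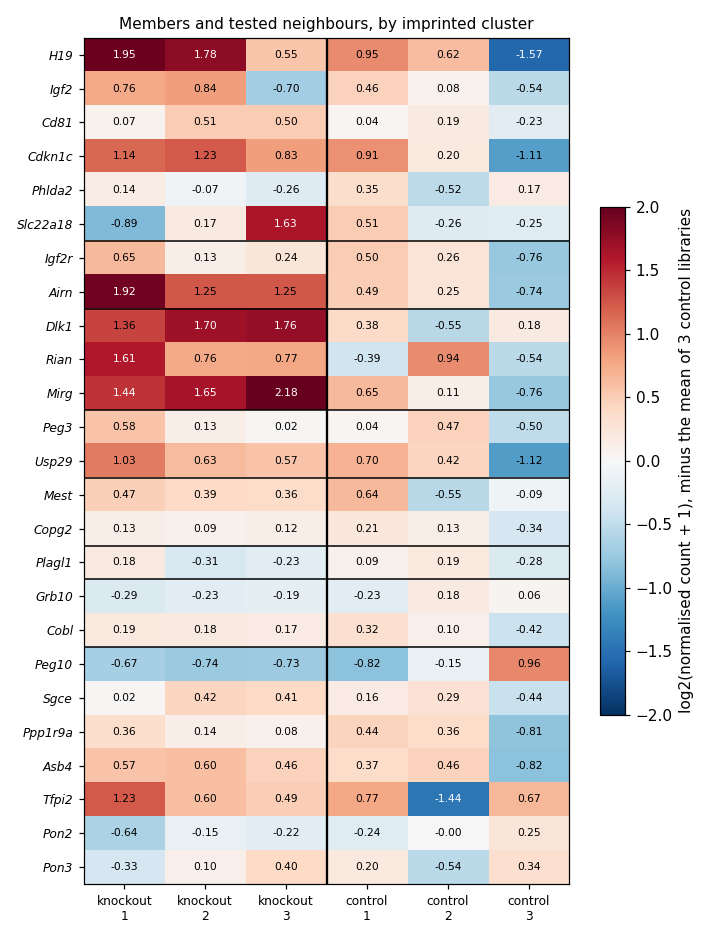
Members and their tested neighbours by imprinted cluster (rows) in each library (columns, knockout libraries on the left), coloured by log2(normalised count + 1) minus the mean of the 3 control libraries. Dlk1, Mirg and Airn are higher across the knockout libraries, and control library 3 stands out in H19, Cdkn1c, Igf2r and Peg10.

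Imprinted genes beyond the members were described by a list of 57, of which 56 were in the table and 42 were tested. Of these, 26 had a limma log2 fold change above 0 and 16 below, with a median of 0.15 (0.06 without control library 3) beside 0.01 over all genes. The knockout libraries all lay above the controls in 7 of 42 (16.7%, against 13.2% of all genes) and all below in 2 of 42 (4.76%, against 14.4%). The 7 were Airn, Mirg, Asb4, Mkrn3, Inpp5f, Zrsr1 and Peg13, and the 2 were Peg12 and Commd1. Limma called 0 of the 42, with 4 at an unadjusted p under 0.05, edgeR called 0 and DESeq2 called Airn. Zrsr1, a paternally expressed splicing-factor gene that lies within Commd1, averaged 2250.0 ± 230 normalised counts in knockouts and 1520.2 ± 243 in controls, with a limma log2 fold change of 0.57 (SE 0.16, limma adjusted p 0.371). Peg12, a paternally expressed gene of the region that corresponds to the human Prader-Willi locus, had 603, 628 and 610 in knockout libraries 1 to 3, against 789, 964 and 1345 in control libraries 1 to 3. DESeq2 called Peg12 lower without control library 3 only, with a log2 fold change of -0.52 and an adjusted p of 0.0365. Snrpn and Snurf, from the same region, were listed at 0 in all libraries. The counting annotation is not given, so their absence from the counts does not show that they were silent.

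**Figure D5:**
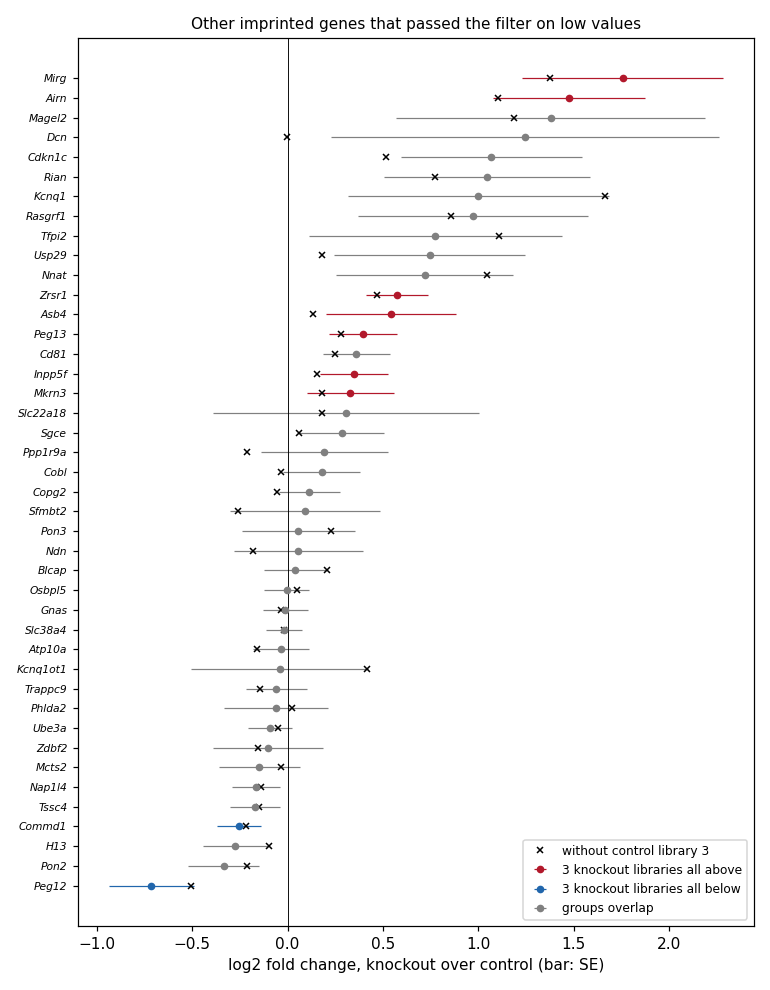
Log2 fold change of each other imprinted gene that passed the filter, knockout over control (points, with SE bars), and its value without control library 3 (crosses). Of the 42 genes, 26 lie above 0 and 16 below.

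Among the partners of IGF2 in signalling, limma, edgeR and DESeq2 each called 0 genes, with 1 at an unadjusted limma p under 0.05. The table held all 14 listed genes and 11 were tested, 6 with a limma log2 fold change above 0 and 5 below, with a median of 0.10 (-0.04 without control library 3). Irs1, the adaptor that links the insulin and IGF1 receptors to their downstream kinases, was the gene with all knockout libraries higher, at 1652, 1340 and 1465 normalised counts in knockout libraries 1 to 3, against 985, 704 and 963 in control libraries 1 to 3. It averaged 1486 ± 157 in knockouts and 884 ± 156 in controls. As 1 of 11 genes lay all above and 1 of 11 all below (9.09% each), both shares were under those of all genes (13.2% and 14.4%). For Irs1 limma gave a log2 fold change of 0.76 (SE 0.19, limma adjusted p 0.371). The DESeq2 adjusted p was 0.0533, and 0.00362 without control library 3. Igf2bp1, which binds Igf2 mRNA, was the gene with all knockout libraries lower, at 5656, 5264 and 4931 in knockout libraries 1 to 3, against 5858, 6359 and 6924 in control libraries 1 to 3, with a limma log2 fold change of -0.27 (SE 0.11, limma adjusted p 0.371). Igf1 was scarce, at 65.1, 37.0 and 65.5 in knockout libraries 1 to 3 and 38.1, 27.8 and 18.9 in control libraries 1 to 3, and its groups overlapped.

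Genes with a part in imprinting marks or DNA methylation were measured as a list of 15, all tested. They were Ctcf, Zfp57, Zfp445, Trim28, Dnmt1, Uhrf1, Dnmt3a, Dnmt3b, Smchd1, Setdb1, Tet1, Tet2, Tet3, Ehmt2 and Hells. Their roles differ, and not all of them maintain marks through cell division. Their limma log2 fold change was above 0 in 3 and below 0 in 12, with a median of -0.22 (-0.19 without control library 3). All knockout libraries lay below the controls in 5 (33.3%, against 14.4% of all genes), which were Ctcf, Trim28, Dnmt1, Uhrf1 and Smchd1. All lay above in 1, Zfp57 (6.67%, against 13.2% of all genes). Dnmt1, the methyltransferase that copies CpG methylation after replication, averaged 33149 ± 2135 normalised counts in knockouts and 44699.6 ± 1272 in controls, with a limma log2 fold change of -0.43 (SE 0.11, limma adjusted p 0.371). Uhrf1, which brings Dnmt1 to newly copied DNA, averaged 19979 ± 663 in knockouts and 26132 ± 844 in controls, with a limma log2 fold change of -0.39 (SE 0.10, limma adjusted p 0.371). Trim28, the corepressor that zinc-finger proteins bring to imprinted regions, averaged 23903 ± 2029 in knockouts and 38841 ± 10655 in controls, with a limma log2 fold change of -0.67 (SE 0.20), or -0.46 without control library 3. Limma called none of the 15, with 5 at an unadjusted p under 0.05, beside 1948 of all 14777 genes. Neither edgeR nor DESeq2 called any of the 15. Without control library 3 DESeq2 called Dnmt1, Uhrf1 and Trim28 lower, with adjusted p-values of 0.00321, 0.00182 and 0.0125. That fit called 363 genes lower in all.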

How the data were processed

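The labels' protocols name an RNeasy extraction and TruSeq v2 libraries. STAR, DESeq2 and the mm10 build appear in the submitters' processing notes. The counting annotation and its strand setting are not given in these sources. The deposited table holds a signal, read counts divided by a size factor per library. All values were whole multiples of a read's value (within 0.001), so reads could be recovered. Genes were kept by edgeR's filterByExpr with a minimum of 10 on the deposited values, leaving 14777. The main test was limma 3.58.1 (trend, robust; R 4.3.3) on log2(value + 1), 3 knockout against 3 control libraries, Benjamini-Hochberg adjusted over all genes. These fold changes understate low genes. EdgeR 4.0.16 (quasi-likelihood, TMM) and DESeq2 1.42.0 were run on recovered reads. P-values measure the spread between libraries, each with its own guide, and the labels do not say whether starting cultures were separate. Every pair of libraries differed by more than counting error, with a chi-square of at least 18.8 per degree of freedom. The members, lists and pairs were chosen with earlier results of these data known. Genes are named as members, as listed neighbours, or as those a list's counts rest on. Coordinates and transcript lengths are from GENCODE M21 (GRCm38), sequences from RefSeq GRCm38.p6. Tests were run on simulated reads without an outlying library such as control library 3, so that check does not decide between the tools here.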

Additional observations from a re-analysis of the deposited data

How the results depend on the processing

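The number of genes called was 0 with limma and 130 with DESeq2. Leaving out each library in turn gave limma counts of 0 to 5, the 5 without control library 3. In fits added after seeing the data, edgeR without control library 3 called 5 genes and DESeq2 without it 701. Of the imprinted growth genes, 0 were called by limma and 1, Dlk1, by DESeq2, with or without control library 3. Of the wider list, limma called 0, DESeq2 1, and DESeq2 without control library 3 called 2. Of 583 values for 33 named genes over the alternatives, 553 kept their direction and side of the threshold, 9 newly passed it and 21 reversed. The reversals fell in 8 genes. Some alternatives could not reverse a value, so the count of 553 overstates stability. An FDR of 0.1 reuses the main fit. Other filters, the replicate block and limma without trend and robust leave its fold changes the same. Without control library 3, edgeR and DESeq2 gave log2 fold changes of -0.025 and -0.035 for Igf2r, -0.00038 and -0.012 for Peg3, -0.20 and -0.21 for Ppp1r9a, -0.053 and -0.063 for Copg2, and -0.033 and -0.043 for Cobl. Leaving out single libraries, limma ranged from -0.042 to 0.59 for Igf2r, -0.010 to 0.48 for Peg3, -0.21 to 0.42 for Ppp1r9a, -0.056 to 0.22 for Copg2, -0.032 to 0.34 for Cobl, -0.32 to 0.11 for Phlda2, -0.21 to 0.25 for Pon3 and -0.36 to 0.90 for Slc22a18. The cause was not tested. Adjusted p-values over the alternatives ran from 4.49e-05 to 0.634 for Dlk1, 0.0122 to 0.634 for Airn and 0.172 to 0.635 for H19.

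Libraries with the same number correlated at 0.26, 0.20 and -0.02 in their deviations from the group means. Knockout library 3 with control library 2 reached 0.22, so the numbers were not taken as pairs. With the replicate block limma called 0 genes, and Dlk1 had a log2 fold change of 1.61 and a limma adjusted p of 0.292. Depth limited Igf2, Meg3 and Mirg, which had few reads in every library.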

Other observations

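Airn is not the only imprinted RNA in the table that lies inside or across another gene, and 6 such pairs were set side by side after their values were seen, with no test. All knockout libraries had more reads of the inner gene per read of its host in 4 of the 6 pairs, and fewer in 0. The share of other gene pairs that separate in this way was not computed. For single genes, 13.2% of those tested lay all above and 14.4% all below. Zrsr1 had 128, 105 and 102 reads per 100 reads of its host Commd1 in knockout libraries 1 to 3, against 66.2, 71.8 and 51.5 in control libraries 1 to 3. Commd1 itself was lower in every knockout library, at 1965 to 2084 normalised counts in knockouts and 2230 to 2529 in controls. Peg13, a non-coding RNA within Trappc9, had 17.7, 18.5 and 18.5 per 100 in knockout libraries 1 to 3, against 11.0, 16.7 and 12.8 in control libraries 1 to 3. Nnat, a small membrane protein gene within Blcap, had 1.01, 0.691 and 0.740 in knockout libraries 1 to 3, against 0.447, 0.408 and 0.626 in control libraries 1 to 3. The Nnat ratio rests on few reads, 16 to 32 in knockout libraries and 13 to 18 in control libraries, and the normalised counts of Nnat itself overlapped between the groups. These 3 pairs and Airn with Igf2r separated the groups in all 6 libraries. Mcts2 within H13 had 10.5 to 13.1 in knockouts and 9.88 to 12.4 in controls, and Nap1l5 within Herc3 had 0.446 to 2.04 in knockouts and 0.817 to 1.42 in controls, both with overlapping groups. Reads of an inner gene and unspliced reads of its host cannot be told apart in these counts.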
